A study of Mus musculus with 4 samples.

Results

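Platelets are cell fragments without a nucleus that megakaryocytes release, and 10 genes that mark both were followed here in lungs carrying 4T1 breast cancer metastases. The set, Ppbp, Pf4, Itga2b, Gp1ba, Gp1bb, Gp9, Gp6, Treml1, Clec1b and Selp, was chosen by name as platelet and megakaryocyte genes, and all 10 were found among the 56748 genes of the count table. Bulk RNA sequencing was given for 2 saline samples and 2 ADC/cmLumiOpto samples. The samples came from female BALB/cJ mice given 4T1 cells, a mouse line of triple-negative breast cancer that carried firefly luciferase (4T1-FLuc), through the tail vein. The saline group is labelled both saline and PBS control. The ADC/cmLumiOpto mice received an antibody-drug conjugate (ADC) of anti-CD276 antibody and mertansine (DM1, which blocks microtubule assembly) together with cmLumiOpto, a gene therapy carried by antibody-coated exosome-AAV that makes a mitochondrial light-gated channel and a luciferase, with the luciferin ViviRen. Material was collected after 3 weeks of treatment. The labels give the ADC at 16 mg/kg and the methods a lower dose, the labels' treatment field also holds the abbreviation Olap, which is not explained, and the material is tumor cells in the labels and dissociated lung tissue in the methods. No label says whether the samples of a group came from separate mice, while the methods call the samples biological and give more per group than the 2 analysed here, so p-values measure the spread between these samples, which may be technical in part.

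Platelets take their RNA from the megakaryocyte, and megakaryocytes are found in the lung as well as in bone marrow. Integrin αIIb (Itga2b) binds fibrinogen with integrin β3, the GPIb-IX-V complex (Gp1ba, Gp1bb, Gp9 and Gp5) binds von Willebrand factor, GPVI (Gp6) binds collagen and CLEC-2 (Clec1b) binds podoplanin, while Ppbp, Pf4, Selp and Treml1 are stored in alpha granules until the platelet is activated. None of the set is a perfect marker, since P-selectin (Selp) is also made by endothelium and Pf4 by some macrophages. In bulk tissue, fewer platelets or megakaryocytes and less RNA per cell cannot be told apart.

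The libraries held 15263375 to 19675436 counts in genes, so 3 counts, the upper limit that a count of 0 allows, corresponded to 0.153 to 0.197 CPM, a count scaled to the total of its sample. Of the 10 genes, 8 passed the filter on low counts, Gp6 did not, and Gp1bb was at 0 in every sample. Clec1b and Gp9 passed the filter only through the ADC/cmLumiOpto samples. Ppbp reached the filter's level in 1 saline sample and 2 ADC/cmLumiOpto samples, so it also relied on the group where it was high. The samples of a group correlated at 0.973 for saline and 0.970 for ADC/cmLumiOpto (Pearson's r of log2 CPM over genes, which do not count as independent replicates). Marker lists of other cells differed between samples. Summed lung epithelial markers were 2685 and 422 CPM in saline against 11626 and 7751 CPM after ADC/cmLumiOpto, and neutrophil markers were 1285 and 583 CPM against 1248 and 8604 CPM. Tumor cell markers were 3688 and 3853 CPM against 3637 and 3779 CPM. That list holds genes of epithelium such as Krt8, Krt18 and Epcam, so its sum does not measure tumor cells alone. The part of these cell types in the results below was not tested.

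By edgeR's quasi-likelihood test, 0 of the 8 genes tested passed a Benjamini-Hochberg adjusted p of 0.05, as did 0% of all 15320 genes tested, among which no adjusted p was under 0.116. Without adjustment, 3 of the 8 were higher and 1 was lower after ADC/cmLumiOpto at a p under 0.05, against 11.0% and 12.2% of all genes tested. The 3 were Ppbp, Itga2b and Clec1b. At an adjusted p of 0.05, DESeq2 called Ppbp alone of the 5 genes to which it gave an adjusted p, against 9.63% of all such genes. EdgeR's exact test called 2 of the 8, Ppbp and Clec1b, against 7.64%. Since Clec1b and Ppbp needed the ADC/cmLumiOpto samples to pass the filter, these counts describe the set and do not test it. The values of both groups did not overlap for 5 genes that were higher (Ppbp, Itga2b, Gp9, Gp6 and Clec1b), against 23.2% of all genes with a count, and for 1 that was lower (Selp), against 20.7%. Among genes tested, groups did not overlap for 28.1% that were higher and 28.8% that were lower. The groups overlapped for Pf4, Gp1ba and Treml1. With 2 samples per group, an exact permutation test of one value cannot give a two-sided p under 0.333.

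Upstream sequence is shown for the granule chemokine pair, for the gene with the largest difference and for the receptor complex subunits Gp9 and Gp1ba. It covers 250 bases before the transcription start of RefSeq on GRCm38.p6, read 5′ to 3′ on the strand of the gene. The windows lie at chr5:90768268-90768517 (Ppbp, plus strand), chr5:90772185-90772434 (Pf4, plus strand), chr6:129397047-129397296 (Clec1b, plus strand), chr6:87777820-87778069 (Gp9, plus strand) and chr11:70638872-70639121 (Gp1ba, plus strand), and none holds an annotated exon. Capitals mark matches on either strand to a GATA motif, which was spelled AGATAA in one form and with a first letter T in the other, and to an ETS motif, which was spelled AGGAAG in one form and with a first letter C in the other.
Ppbp: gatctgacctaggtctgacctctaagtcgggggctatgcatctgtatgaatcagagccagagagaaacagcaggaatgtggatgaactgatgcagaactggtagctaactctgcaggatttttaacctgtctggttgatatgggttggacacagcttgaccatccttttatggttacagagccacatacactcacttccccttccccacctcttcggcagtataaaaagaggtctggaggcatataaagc
Pf4: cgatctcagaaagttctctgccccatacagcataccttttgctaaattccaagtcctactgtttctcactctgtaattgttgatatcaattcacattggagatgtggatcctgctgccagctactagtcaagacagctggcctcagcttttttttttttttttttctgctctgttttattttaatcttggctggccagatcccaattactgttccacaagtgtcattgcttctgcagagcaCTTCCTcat
Clec1b: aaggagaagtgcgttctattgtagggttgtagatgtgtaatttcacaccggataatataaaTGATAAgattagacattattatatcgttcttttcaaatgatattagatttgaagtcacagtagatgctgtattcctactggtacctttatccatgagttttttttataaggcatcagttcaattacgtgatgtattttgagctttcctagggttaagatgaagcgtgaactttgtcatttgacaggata
Gp9: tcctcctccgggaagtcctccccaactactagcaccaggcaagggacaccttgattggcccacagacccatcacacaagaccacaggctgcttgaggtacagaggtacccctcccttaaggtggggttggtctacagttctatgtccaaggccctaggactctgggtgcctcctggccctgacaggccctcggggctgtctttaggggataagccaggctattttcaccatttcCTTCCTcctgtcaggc
Gp1ba: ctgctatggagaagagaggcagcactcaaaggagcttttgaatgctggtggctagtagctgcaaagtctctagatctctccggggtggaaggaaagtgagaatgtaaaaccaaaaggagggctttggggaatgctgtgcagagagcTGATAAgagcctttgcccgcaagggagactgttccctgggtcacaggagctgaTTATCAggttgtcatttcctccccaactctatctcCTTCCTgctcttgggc
The GATA motif was found in the windows of 3 of the 10 genes (Gp1ba, Gp6 and Clec1b), against 16.6% of 32851 promoters, and the ETS motif in 6 of 10, against 39.2%. Among the windows with an ETS match, those of Itga2b and Gp1bb hold 180 and 250 annotated exon bases of their 250. The NF-E2 motif TGAGTCA was found in 0 of 10 and in 4.46% of all promoters. The Pf4, Gp9 and Gp1ba windows carried the ETS letters close to the start, at −9, −16 and −16, and the Clec1b window carried GATA letters at −189. A match describes these letters only.

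Positions of genes are those of the count table, on mm39 according to the submitters' processing notes, and all 10 genes are protein-coding. Of the granule chemokines, Ppbp (ENSMUSG00000029372, chr5:90916377-90917922) encodes the precursor of platelet basic protein, a neutrophil attractant also known as CXCL7. Its counts were 12 and 6 in saline against 43 and 63 after ADC/cmLumiOpto, or 0.750 and 0.404 CPM against 2.44 and 3.07 CPM. Both ADC/cmLumiOpto samples lay above both saline samples. The mean was 0.577 ± 0.245 CPM in saline and 2.76 ± 0.449 CPM after ADC/cmLumiOpto (SD, n = 2 each), a log2 fold change of 2.24 (SE 0.55), which did not pass edgeR's quasi-likelihood test (Benjamini-Hochberg adjusted p = 0.123). The summed counts gave a ratio of 4.76 with an exact 95% interval of 2.87 to 8.34, which covers counting error only.

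Pf4 (ENSMUSG00000029373, chr5:90920294-90921242), platelet factor 4 or CXCL4, starts 2371 bases beyond the end of Ppbp on the same chromosome. Its counts were 120 and 349 in saline against 255 and 341 after ADC/cmLumiOpto. The saline samples took the lowest and the highest of these values, so the groups overlapped. The log2 fold change was 0.00 (SE 0.50; edgeR's quasi-likelihood test, Benjamini-Hochberg adjusted p = 0.997), and it ran from −0.61 without saline replicate 1 to 1.05 without saline replicate 2. It was also below 0 without ADC/cmLumiOpto replicate 2, at −0.105, so its direction depended on which samples were used. The ratio of Pf4 to Ppbp counts was 10 and 58.2 in saline and 5.93 and 5.41 after ADC/cmLumiOpto, and the exact 95% interval of saline replicate 2 (26.5 to 159.6) lay above those of both ADC/cmLumiOpto samples (4.28 to 8.40 and 4.13 to 7.20). Cd163, a scavenger receptor of macrophages that can also make Pf4, had 210 and 803 counts in saline against 60 and 174, so saline replicate 2 was highest for both genes. Cd163 was chosen from the 10 macrophage markers after its values were seen, and their summed level, at 1858 and 1639 CPM in saline against 2225 and 1657 CPM, was lowest in saline replicate 2. The part of macrophages in Pf4 was not tested.

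**Figure D1:**
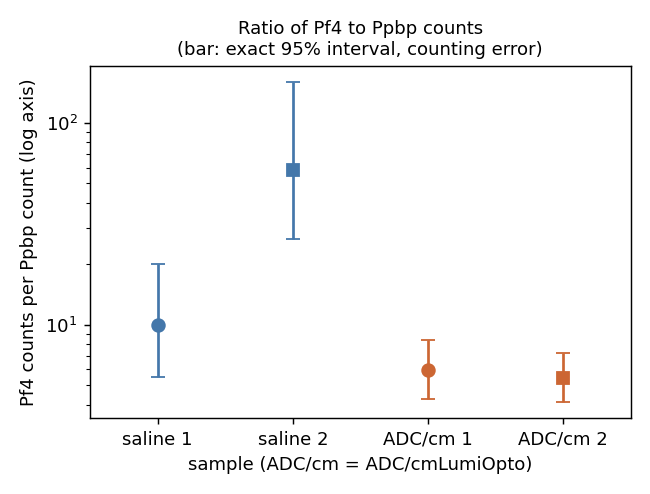
The ratio of Pf4 to Ppbp counts (vertical axis, log scale) is plotted for each sample, with bars for the exact 95% interval from counting error. Saline replicate 2 sits at 58.2, above the other 3 samples.

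Among the receptors, Clec1b (ENSMUSG00000030159, chr6:129374260-129386298) had the largest fold change of the 8 genes tested. It had 2 and 1 counts in saline against 27 and 59 after ADC/cmLumiOpto, or 0.125 and 0.0674 CPM against 1.53 and 2.88 CPM. Both saline samples were under the level of 3 counts and both ADC/cmLumiOpto samples were well above it. The log2 fold change was 4.41 (SE 0.77; edgeR's quasi-likelihood test, Benjamini-Hochberg adjusted p = 0.116), and 3.87 to 4.88 when each sample was left out in turn. The summed counts gave a ratio of 23.2, with an exact 95% interval of 7.67 to 114.5 because saline held 3 counts. Clec1b shares 184 of its 5103 exon bases with Clec9a on the same strand, a dendritic cell receptor gene that had 43 and 6 counts against 152 and 143, and reads in the shared bases cannot be assigned to one gene from the table.

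Itga2b (ENSMUSG00000034664, chr11:102344123-102360948) had 65 and 37 counts in saline against 91 and 178 after ADC/cmLumiOpto. The groups did not overlap, although saline replicate 1 and ADC/cmLumiOpto replicate 1 were close, at 4.06 and 5.16 CPM. The log2 fold change was 1.08 (SE 0.43; edgeR's quasi-likelihood test, Benjamini-Hochberg adjusted p = 0.205). Gp6 (ENSMUSG00000078810, chr7:4366964-4400743) was near the limit of counting, with 1 and 1 counts against 3 and 9, and was not tested. Its summed counts gave a ratio of 4.85, with an exact 95% interval of 1.08 to 44.6.

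The subunits of the GPIb-IX-V complex had fold changes of either sign. Gp9 (ENSMUSG00000030054, chr6:87755054-87756750) had 5 and 0 counts in saline against 11 and 26 after ADC/cmLumiOpto, a log2 fold change of 2.52 (SE 1.08; edgeR's quasi-likelihood test, Benjamini-Hochberg adjusted p = 0.227). Gp1ba (ENSMUSG00000050675, chr11:70529948-70532862), the ligand-binding chain, had 28 and 36 counts against 19 and 48. The ADC/cmLumiOpto samples took the lowest and highest Gp1ba values, and the log2 fold change was −0.28 (SE 0.55; edgeR's quasi-likelihood test, Benjamini-Hochberg adjusted p = 0.790). It was 0.17 without ADC/cmLumiOpto replicate 1. Gp1bb (ENSMUSG00000050761, chr16:18439067-18441153) was listed at 0 in all 4 samples, and 1902 of its 2087 exon bases on GRCm38 are shared with Septin5 on the same strand, which had 104, 96, 52 and 130 counts in the same order, so reads of Gp1bb could have been assigned elsewhere. Gp5 (ENSMUSG00000047953), the remaining subunit, had 2 and 1 counts against 12 and 37, a log2 fold change of 3.59.

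Of the surface proteins stored in granules, Selp (ENSMUSG00000026580, chr1:163942833-163977595) was lower after ADC/cmLumiOpto, with 371 and 376 counts in saline against 318 and 322. Both ADC/cmLumiOpto samples lay under both saline samples, with means of 16.9 ± 1.64 CPM and 24.3 ± 1.52 CPM (SD, n = 2 each). The log2 fold change was −0.53 (SE 0.21; edgeR's quasi-likelihood test, Benjamini-Hochberg adjusted p = 0.197). Sele, the endothelial E-selectin, had 61 and 30 counts in saline against 18 and 15, while the summed endothelial markers were 699 and 582 CPM against 751 and 1008 CPM. Treml1 (ENSMUSG00000023993, chr17:48666944-48674204), which encodes TLT-1, a receptor of alpha granules, had 11 and 3 counts against 6 and 24, and the groups overlapped. Its log2 fold change was 0.76 (SE 0.89; edgeR's quasi-likelihood test, Benjamini-Hochberg adjusted p = 0.634), and −0.40 without ADC/cmLumiOpto replicate 2.

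**Figure D2:**
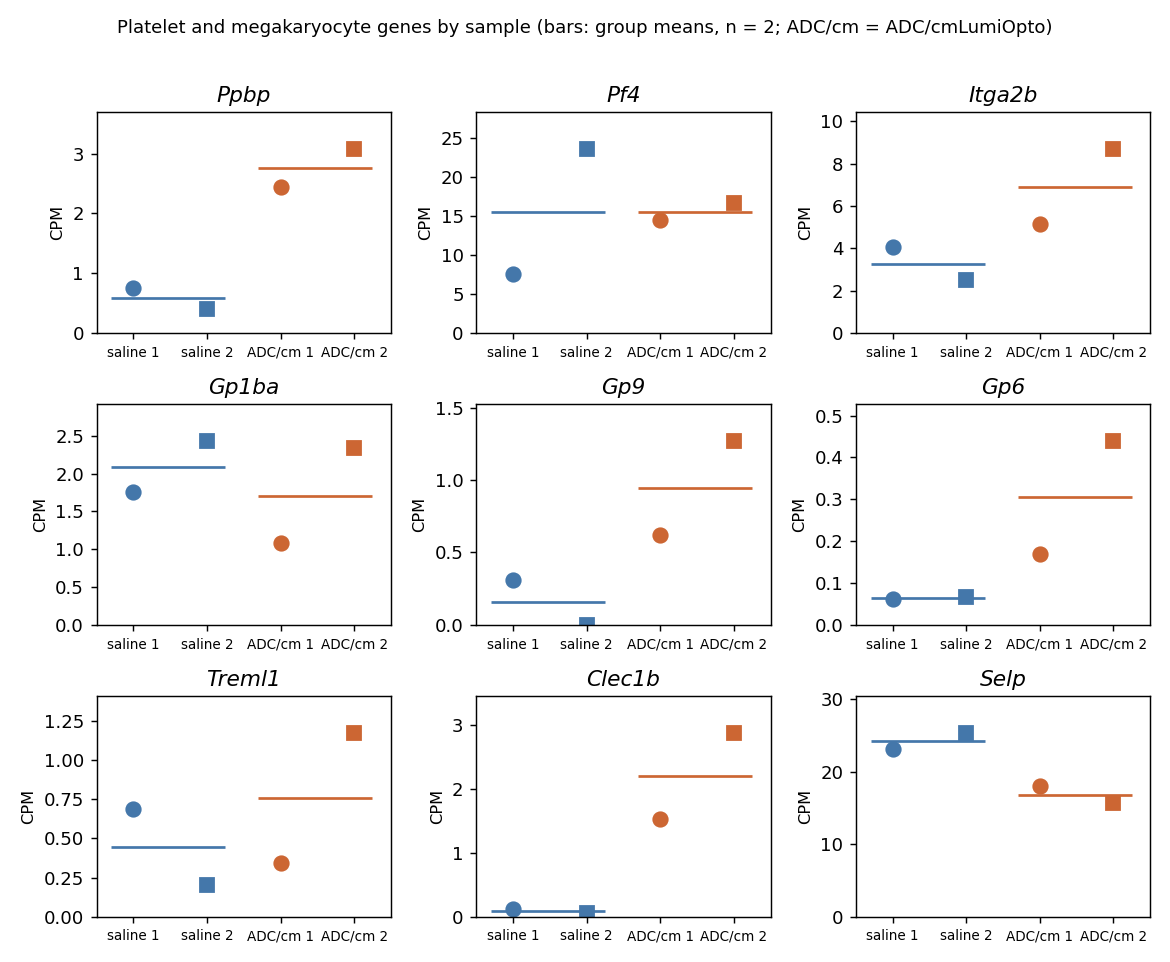
CPM (vertical axis) of 9 of the 10 genes are plotted by sample, with a point for each saline (blue) and ADC/cmLumiOpto (orange) sample and a line at each group mean (n = 2). Clec1b and Ppbp are higher and Selp is lower in both ADC/cmLumiOpto samples, Pf4 overlaps, and Gp1bb, at 0 throughout, is not drawn.

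**Figure D3:**
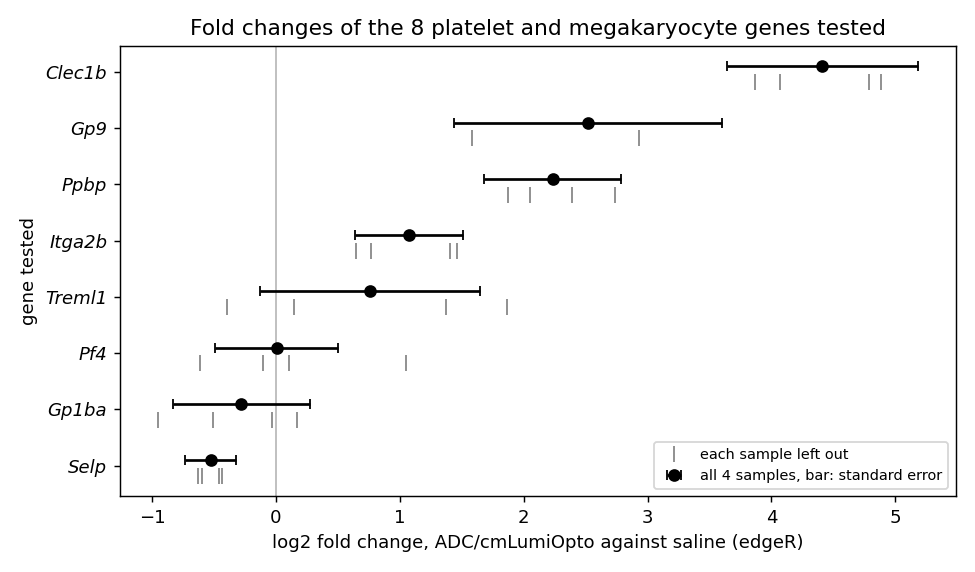
Points give the log2 fold change of ADC/cmLumiOpto against saline for the 8 genes tested, with bars for the standard error and gray ticks for the fits that left out a sample (Gp9 has 2, since a fold against a sample at 0 and a fit that did not test it are not drawn). Values run from −0.53 for Selp to 4.41 for Clec1b.

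The genes differed widely in level. Per kilobase of exon, mean Pf4 was highest in both groups, at 21.5 CPM per kb in saline and 21.6 after ADC/cmLumiOpto, followed by Selp at 5.50 and 3.82. Ppbp stood at 0.533 CPM per kb in saline and 2.54 after ADC/cmLumiOpto, and Clec1b at 0.0189 and 0.432. Selp and Pf4 therefore dominated the sum over the set, which was 38.4 and 54.5 CPM in saline against 43.8 and 52.2 CPM, overlapping, with a fold of 1.03. Selp alone made up 60.3% and 46.5% of the sum in saline and 41.1% and 30.1% after ADC/cmLumiOpto. Without Selp and Pf4, an alternative chosen after the values were seen, the sum was 7.75 and 5.66 CPM against 11.3 and 19.9 CPM, a fold of 2.32 without overlap.

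Erythroid markers, which circulating blood also brings, were summed at 1113 and 353 CPM in saline against 1875 and 2079 CPM after ADC/cmLumiOpto. Per 1000 CPM of these markers, the sum without Selp and Pf4 was 6.96 and 16.0 in saline against 6.05 and 9.55, so the groups overlapped. On the same scale Clec1b was 0.112 and 0.191 against 0.816 and 1.38, and Ppbp 0.674 and 1.15 against 1.30 and 1.48, both without overlap, as was Gp9. Gp1ba (1.57 and 6.87 against 0.574 and 1.13), Treml1 and Selp were lower without overlap, and Pf4, Itga2b and Gp6 overlapped. Per 1000 CPM of lung epithelial markers, Clec1b and Ppbp overlapped and the sum without Selp and Pf4 was lower, at 2.89 and 13.4 against 0.975 and 2.56. Pf4, Itga2b, Gp1ba, Treml1 and Selp were also lower without overlap on the lung epithelial scale, and Gp9 and Gp6 overlapped. Per 1000 CPM of neutrophil markers, Ppbp and the sum without Selp and Pf4 overlapped, as did Pf4, Itga2b, Gp9 and Gp6. Clec1b was higher without overlap on the neutrophil scale, and Gp1ba, Treml1 and Selp were lower without overlap. Per 1000 CPM of endothelial markers, Selp was 33.2 and 43.5 against 24.0 and 15.6, again lower in both ADC/cmLumiOpto samples. On that scale Gp1ba was also lower without overlap, Pf4 and Treml1 overlapped, and Ppbp, Itga2b, Gp9, Gp6 and Clec1b were higher without overlap. The sum without Selp and Pf4 was higher too, at 11.09 and 9.729 against 15.08 and 19.69. That sum was also higher without overlap per 1000 CPM of macrophage markers, at 4.171 and 3.454 against 5.094 and 11.98. On the macrophage scale Ppbp, Itga2b, Gp9, Gp6 and Clec1b were higher and Selp lower without overlap. Pf4, Gp1ba and Treml1 overlapped. These ratios were chosen after the values were seen and carry no test. The share of all genes without overlap was not computed on these scales.

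**Figure D4:**
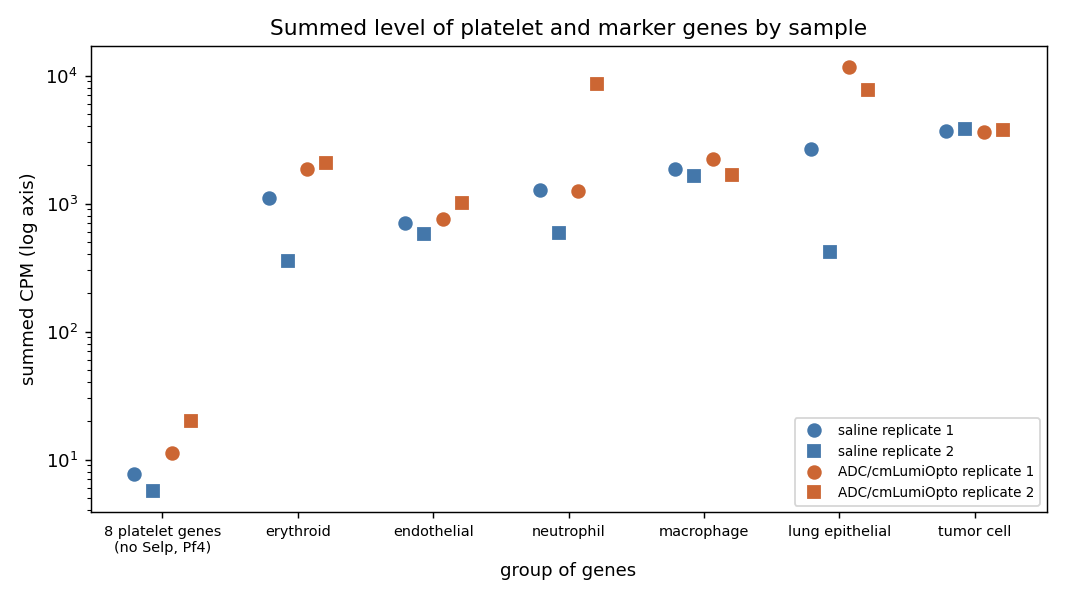
Summed CPM (vertical axis, log scale) of the 8 platelet genes other than Selp and Pf4 and of marker genes of other cell types is plotted by sample. Erythroid and lung epithelial sums are higher in both ADC/cmLumiOpto samples, and neutrophil markers reach 8604 CPM in ADC/cmLumiOpto replicate 2.

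Other genes of the platelet were taken from lists. Of all genes tested, 11.0% were higher and 12.2% lower at an unadjusted p under 0.05, the shares beside which the counts of each list stand. Of 12 further platelet receptors tested, 3 were higher and 2 lower at that p, and 0 passed the adjusted p of 0.05. Among them P2ry1, an ADP receptor, had 5 and 4 counts in saline against 17 and 68, a log2 fold change of 2.85, and Itga6, an integrin chain that binds laminin, had a log2 fold change of −0.69. Of 18 granule and cytoplasm genes, 3 were higher and 3 lower, with Rasgrp2, an activator of Rap1, at 70 and 51 counts against 137 and 574 and F13a1, a clotting factor subunit also made by macrophages, at a log2 fold change of −1.31. Thbs1 (thrombospondin 1) had a log2 fold change of −1.06. The levels of these genes differed widely. Mean CPM in saline was 750 for Thbs1, 283 for Itga6 and 210 for F13a1, against 3.91 for Rasgrp2 and 0.291 for P2ry1. Which cells made these RNAs was not tested. Of 13 signaling genes, 3 were higher and 4 lower, including Btk at 1.11, Rap1b at 0.51 and Gnaq at −0.65 on the log2 scale.

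Genes of the megakaryocyte lineage were low or mixed. Of 6 tested, 0 were higher and 2 were lower at an unadjusted p under 0.05, against 11.0% and 12.2% of all genes tested. The log2 fold changes were −1.08 for Runx1 and −0.85 for Zfpm1, which encodes the GATA1 cofactor FOG1. Nfe2, which is also made by erythroid and myeloid cells, had 128 and 60 counts in saline against 98 and 864. Gata1 had 2, 1, 3 and 6 counts and Gfi1b 2, 1, 3 and 21 in the order saline, saline, ADC/cmLumiOpto, ADC/cmLumiOpto, both too few for the test. ADC/cmLumiOpto replicate 2 held most of the counts of Gfi1b and Nfe2, and it also held the highest neutrophil marker sum.

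**Figure D5:**
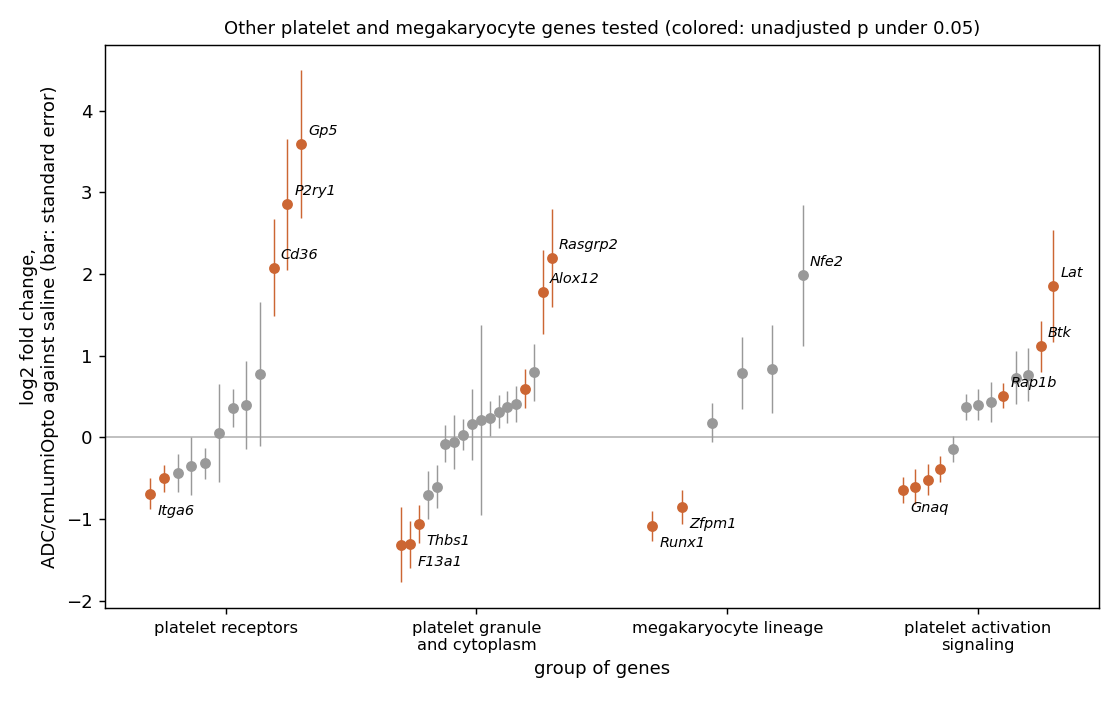
Points give the log2 fold change of ADC/cmLumiOpto against saline for the other platelet and megakaryocyte genes tested, in 4 groups, with bars for the standard error and color for an unadjusted p under 0.05. Each group holds values on both sides of 0, and Gp5 is highest at 3.59.

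RNA of genes for ligands and counter-receptors of the platelet proteins was counted in the same samples. The proteins themselves were not measured here. Vwf, which encodes von Willebrand factor and is made by endothelium and megakaryocytes, had 750 and 370 counts in saline against 1020 and 1784, a log2 fold change of 1.01 (edgeR's quasi-likelihood test, Benjamini-Hochberg adjusted p = 0.159). Pdpn, which encodes the CLEC-2 ligand podoplanin, had 787 and 434 counts against 1217 and 911, a log2 fold change of 0.53, and Selplg, which encodes the P-selectin ligand PSGL-1, had 870 and 447 against 1257 and 3091. The collagen genes Col1a1 and Col3a1 had log2 fold changes of −2.02 and −1.13. Cxcr2, the receptor of the Ppbp product, had 530 and 290 counts against 533 and 3367, and Cxcr3 had a log2 fold change of −0.04. Fga, Fgb and Fgg, which encode the fibrinogen chains, were near 0 and were not tested. Their counts are RNA and do not measure fibrinogen protein.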

How the data were processed

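Poly(A) RNA of 2 saline and 2 ADC/cmLumiOpto samples was sequenced, and the authors deposited counts, whole numbers of reads per gene without normalization. Alignment was by HISAT2. The build is mm39 in the submitters' processing notes and GRCm38 in the methods, and the positions of the 10 genes differed from a GRCm38 annotation, so genes were matched by identifier. The counting program and strand setting are not given in the sources used here, so overlapping and antisense genes cannot be told apart.

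Counts were filtered by filterByExpr (minimum count 10, minimum total 15), leaving 15320 genes, normalized by TMM and compared by glmQLFit and glmQLFTest in edgeR 4.0.16 (R 4.3.3) with Benjamini-Hochberg adjustment and no covariate. CPM of genes were scaled to the counts in genes that passed the filter, multiplied by the TMM factor. The CPM given for 3 counts were scaled to all counts in genes. Fold changes used a prior count of 0.125. The code was tested on simulated data. DESeq2 1.42.0, edgeR's exact test, other normalizations, filters and prior counts, a replicate block and each sample left out were tried. The genes and lists were chosen with earlier results of these data known. Named are all 10 genes, the 3 tested genes of smallest p in each other list, every ligand or counter-receptor, and the 5 genes of nearest profile. Other genes named for their role (Gp5, Cd163, Sele, Clec9a, Septin5, Nfe2, Gata1 and Gfi1b among them) include some chosen after their values were seen. Promoter windows are from RefSeq on GRCm38.p6, and intervals are exact and cover counting error only.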

Additional observations from a re-analysis of the deposited data

How the results depend on the processing

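Over the log2 fold changes of the 8 genes tested, 77 values under an alternative kept their direction and side of the threshold, 3 kept their direction with no adjusted p, 6 passed the threshold and 5 changed direction. Genes past an adjusted p of 0.05 numbered 0 by edgeR's quasi-likelihood test (3553 at an unadjusted p under 0.05), 1332 by DESeq2 (575 higher and 757 lower), 1170 by edgeR's exact test, 2259 without the filter, 607 with the replicate block and 0 to 218 with a sample left out. Ppbp passed by DESeq2 (adjusted p = 0.0481), the exact test (0.00949) and without the filter (0.00778), within 0.00778 to 0.467 over its alternatives. Clec1b passed by the exact test (0.000213), without the filter (2.45e-05) and with the replicate block (0.0317), within 2.45e-05 to 0.338. DESeq2 gave no adjusted p for Gp9, Treml1 and Clec1b. The replicate numbers were not taken as pairs, because no label says that same-numbered samples share an animal or batch. Deviations of same-numbered samples correlated at 0.0985 over genes, which cannot decide whether they are pairs. Pf4, at 0.00, was at −0.00077 without the filter, and with a sample left out it ran from −0.61 (without saline replicate 1; −0.105 without ADC/cmLumiOpto replicate 2) to 1.05. With a sample left out Gp1ba ran from −0.95 to 0.17 (without ADC/cmLumiOpto replicate 1) and Treml1 from −0.40 (without ADC/cmLumiOpto replicate 2) to 1.86. Genes of the set with a lower value numbered 2, and 1 to 4 with a sample left out. The median of those tested, 0.92 against 0.03 for all genes tested, was −0.10 with at least 10 counts in every sample, which left 4 genes, and −0.105 to 1.66 with a sample left out. The log2 ratio of the summed CPM was 0.05, and 1.22 without Selp and Pf4, chosen after seeing the data. The cause of these changes was not tested, beyond the fewer genes or samples that some settings leave. A lone sample was assumed to vary like the other group. At these depths Gp6, Gp9, Treml1 and Clec1b in saline rest on 14 counts or fewer.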

Other observations

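Of the genes in no list, those whose profile over the 4 samples lay nearest to the mean profile of the tested platelet genes were Arhgap25, Mpp7, Hecw2, Rogdi and Arg2, among 14002 genes compared, at distances of 0.0557, 0.0683, 0.0964, 0.0969 and 0.122 in log2 CPM. Their log2 fold changes ran from 1.02 to 1.09. The mean profile includes Clec1b, Gp9 and Ppbp, which relied on the ADC/cmLumiOpto samples to pass the filter. Pf4, Gp1ba and Selp, with log2 fold changes of 0.00, −0.28 and −0.53, did not follow it. The nearest genes therefore describe this mean and not a profile shared by the set. With 4 samples, many genes can share such a profile.

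Of all genes tested, 11.0% were higher and 12.2% lower at an unadjusted p under 0.05. Of the marker lists for other cells, 5 of 10 endothelial genes tested were higher and 1 was lower at that p. Log2 fold changes were 1.57 for Egfl7, 1.03 for Esam and 1.37 for Cldn5. Neutrophil genes were higher in 6 of 10, led by Camp, S100a9 and Ly6g, erythroid genes in 3 of 6, and mast cell and basophil genes in 2 of 4 (Hdc and Gata2), with 0 lower in each of these lists. Summed neutrophil markers rose mainly in ADC/cmLumiOpto replicate 2, at 8604 CPM. ADC/cmLumiOpto replicate 1, at 1248 CPM, lay under saline replicate 1, at 1285 CPM. Kit overlapped between groups, with a log2 fold change of 0.10. Tumor cell genes were higher in 1 of 9 and lower in 2, and Cd276, the target of the antibody, had a log2 fold change of −0.63. None of these passed an adjusted p of 0.05 by edgeR's quasi-likelihood test. Of 10 macrophage genes tested, 0 were higher and 2 lower (Cd163 and Mrc1) at an unadjusted p under 0.05. None passed the adjusted p of 0.05 by edgeR's quasi-likelihood test. Cd163 had a log2 fold change of −2.49. Mrc1, the mannose receptor, had 3388 and 5813 counts in saline against 2380 and 3513 after ADC/cmLumiOpto, and C1qb had a log2 fold change of 0.51. The 10 lung epithelial markers, led by Hopx, Aqp5 and Ager at the smallest p, all had an unadjusted p under 0.05 and did not overlap between groups. Of all genes tested, 28.1% were higher without overlap. None of the 10 passed the adjusted p of 0.05 by edgeR's quasi-likelihood test.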
